A study of Arabidopsis thaliana with 56 samples.

Results

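LEP (AT5G13910) and 5 genes of the CYP78A family, CYP78A6 (AT2G46660), CYP78A9 (AT3G61880), CYP78A5 (AT1G13710), CYP78A7 (AT5G09970) and CYP78A8 (AT1G01190), were followed through all 56 libraries of a TARGET assay in root cells of Arabidopsis thaliana. They are 6 of the 33016 genes in each count table. LEP and CYP78A6 were selected on their measured rise under the TF HB7, and the other 4 genes were added as relatives of CYP78A6. The TARGET assay asks which genes respond when a TF is let into the nucleus. In all groups, protoplasts from roots of Col-0 seedlings aged 10 days carried a transient expression vector and were given 35 µM cycloheximide, which blocks translation, and 10 µM dexamethasone, which releases the TF fusion into the nucleus. The vector expressed 1 of 13 TFs (ABF1, ABF3, DIV2, DREB2A, FBH3, GBF2, GBF3, HB7, HSFA6A, MYB3, MYBR1, WRKY33 or ZAT6) or was an empty vector (EV), and poly(A) RNA of sorted transfected cells was sequenced.

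There were 47 TF libraries and 9 EV libraries in 3 batches. EV was transfected in every batch with 3 libraries each. Of the TFs, 3 (FBH3, GBF2 and HSFA6A) had libraries in 2 batches and 10 in 1 batch. Each TF had 3 libraries in a batch, apart from ABF3 with 2. HB7 was in batch 3. The TFs were made from plasmids, and RNA of the TF's own gene stood at 2.04 times the EV level of the batch for WRKY33, 5.18 times for ZAT6 and at least 13.7 times for the other TFs. The 3 libraries of a group are wells of a single transfection, so that the spread between them, and every FDR given here, may be technical and does not cover differences between transfections or plants. All comparisons with EV share EV libraries.

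LEP (LEAFY PETIOLE) encodes a TF of the AP2/ERF family, related to ESR1 and PUCHI, that acts in leaf and shoot development. CYP78A genes encode plant cytochrome P450 monooxygenases that promote growth of organs. CYP78A5, also known as KLUH, extends the growth of leaves, flowers and seeds, while CYP78A6 (EOD3) and CYP78A9 act on seed and fruit size, and CYP78A7 acts redundantly with CYP78A5. HB7 and its close relative HB12 are TFs of the HD-Zip I family, induced by abscisic acid and drought, and bind short AT-rich words. FBH3 is a bHLH TF, a class that binds E-boxes, and DIV2 is a MYB-related TF.

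The 6 genes lie at 6 separate loci. LEP has 1 exon and a coding length of 636 bases, and the 5 CYP78A genes have 2 exons each. CYP78A6 (chromosome 2, bases 19153328 to 19155579, minus strand) lies 9694 bases from HB7, and CYP78A9 (chromosome 3, bases 22905867 to 22907958, minus strand) lies 6195 bases from HB12. At both places a CYP78A gene, an HD-Zip I gene and a MIR166 gene follow in this order, with other annotated genes among them. The coding sequences of CYP78A6 and CYP78A9 were identical at 80.39% of 1576 aligned bases, the highest among the 15 pairs of the family, and those of HB7 and HB12 at 79.62% of 687. CYP78A6 and CYP78A9 transcripts shared 0 words of 50 bases, so that few reads of this length or longer could fit both genes equally. These coordinates, and the sequences here, are those of the RefSeq annotation of TAIR10.1.

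The 250 bases before the annotated start are shown for LEP, CYP78A6 and CYP78A9, the 3 members with the widest ranges of level across the TFs. Capitals mark E-boxes (CANNTG, either strand), a word added to the search after the values were seen.
LEP, chr5:4483248-4483497, minus strand: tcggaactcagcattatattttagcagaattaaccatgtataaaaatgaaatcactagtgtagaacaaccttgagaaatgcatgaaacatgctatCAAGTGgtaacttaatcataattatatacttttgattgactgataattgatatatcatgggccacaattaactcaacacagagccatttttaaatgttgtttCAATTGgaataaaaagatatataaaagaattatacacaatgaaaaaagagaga
CYP78A6, chr2:19155580-19155829, minus strand: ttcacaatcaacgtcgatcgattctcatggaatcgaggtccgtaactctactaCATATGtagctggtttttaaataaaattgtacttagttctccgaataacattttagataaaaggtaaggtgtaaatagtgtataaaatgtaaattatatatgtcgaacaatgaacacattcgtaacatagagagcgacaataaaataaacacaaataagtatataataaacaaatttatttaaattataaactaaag
CYP78A9, chr3:22907959-22908208, minus strand: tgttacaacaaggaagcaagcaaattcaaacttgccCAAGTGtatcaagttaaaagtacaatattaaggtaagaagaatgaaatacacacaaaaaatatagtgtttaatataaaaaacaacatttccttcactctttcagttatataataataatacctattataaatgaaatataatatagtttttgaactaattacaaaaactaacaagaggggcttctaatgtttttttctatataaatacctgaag
In the window from 250 bases before to 50 after the start, LEP held 2 E-boxes, CYP78A6 held 1 and CYP78A9 held 1, and an E-box stood in 61.7% of all 27443 windows of this kind. The form CAAGTG, also picked after the values were seen, stood at -155 in LEP and at -214 in CYP78A9. These are positions of the first base counted from the annotated start. It stood in 11.2% of all windows. The window of HB7 held it 2 times, and HB7 had a log2 fold change of -0.47 under FBH3 (FDR = 0.236 by edgeR).

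The HD-Zip word AATNATT was absent from this window in LEP, CYP78A6 and CYP78A9. Of the 6 members, 1 (CYP78A7) held it, across its start site, and 33.8% of all windows did. Within 500 bases before the start, 4 of the 6 members held it, against 49.5% of all windows, and LEP held none. The matches of CYP78A6 (at -471 and -286) and CYP78A9 (at -356) are shown with 10 bases on each side, with the word in capitals.
CYP78A6, chr2:19156034-19156060, minus strand: agtccatgtaAATCATTtagacgatta
CYP78A6, chr2:19155849-19155875, minus strand: aagcactatcAATTATTtcaattataa
CYP78A9, chr3:22908298-22908324, minus strand: aatcaaataaAATAATTatcagaaccc
The longer HD-Zip word CAATNATTG was found in 0 of the 6 members in either window. The G-box CACGTG was found in CYP78A7 alone of the 6, at -92, and in 7.68% of all windows. The W-box core TTGAC, bound by WRKY proteins, was found in LEP at -120 and in CYP78A5, and in 50.5% of all windows. These matches describe the letters in the windows only.

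**Figure D1:**
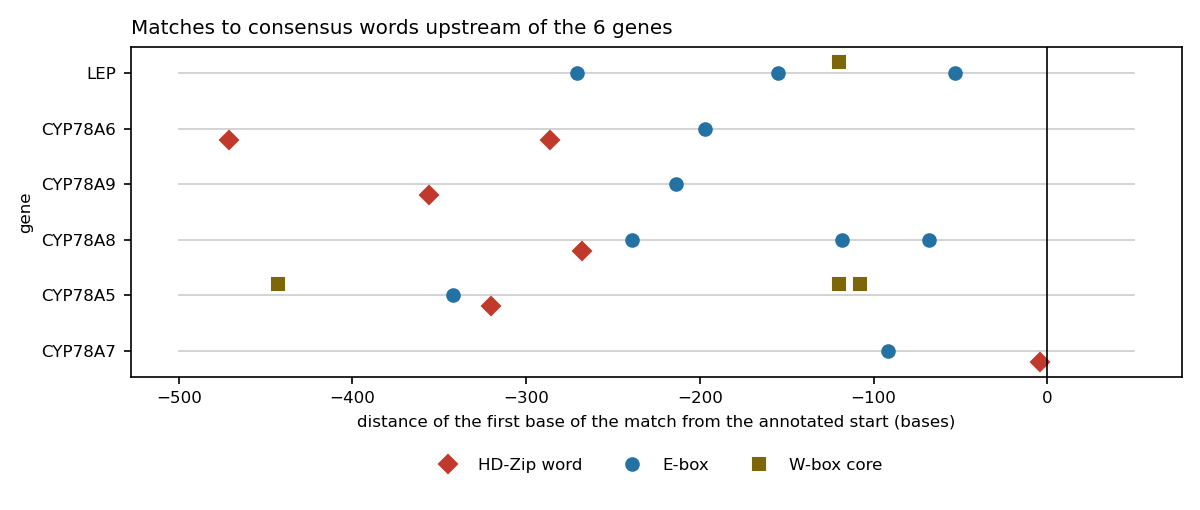
Matches to 3 consensus words upstream of the 6 genes. The x axis is the distance in bases of the first base of each match from the annotated start, from 500 bases before it, each row is a gene, and diamonds, circles and squares are the HD-Zip word, the E-box and the W-box core. LEP has 3 E-boxes and no HD-Zip word, CYP78A6 has 2 HD-Zip words, at -471 and -286, and the HD-Zip match of CYP78A7 spans the start.

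Total counts per library ran from 8619133 to 29763752, and 4 loci with the most counts took from 2.31% to 76.8% of a library. Levels are given as CPM after TMM scaling, and 3 counts, the floor used for genes at 0, were worth 0.0911 to 0.419 CPM in a library. The gene of the transfected TF was above every EV library of its batch in all 16 combinations of TF and batch. Of 10 root markers, 9 exceeded 3 counts over the EV libraries and summed to 30.0 to 65.2 CPM, with the stele marker AHP6 at 0 in all libraries. The 3 leaf genes RBCS1A, LHCB1.1 and LHCB2.1 summed to at most 0.767 CPM in any library. In bulk samples, a lower value from fewer cells of a type and from less RNA per cell cannot be told apart.

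The highest group means of LEP and CYP78A6 were those under HB7, and for LEP the range of FBH3 in batch 1 overlapped it. HB7 itself, counted from plasmid and endogenous RNA together, stood at 3305 ± 260 CPM (SD, n = 3) under HB7 and at 82.8 ± 35.6 CPM in EV of batch 3 (n = 3). LEP had 2145, 2243 and 2022 counts in the 3 HB7 libraries, or 77.0, 81.5 and 95.1 CPM. In EV of the same batch it had 16, 10 and 10 counts, or 1.11, 0.353 and 0.320 CPM. The HB7 libraries lay close together and far above EV. The log2 fold change was 7.35 ± 0.75 (SE) with all 9 EV libraries.

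CYP78A6 had 712, 833 and 885 counts under HB7, or 25.6, 30.3 and 41.6 CPM. In EV of batch 3 it had 0, 5 and 39 counts, or 0, 0.177 and 1.25 CPM, so that 1 EV library carried most of its EV reads. The log2 fold change was 5.89 ± 0.72 (SE), and 8.05 without replicate 3 of EV in batch 3. No HB7 library overlapped EV for either gene. Per kb of transcript, LEP reached 75.5 ± 8.40 and CYP78A6 16.0 ± 4.07 CPM (SD, n = 3) under HB7. Both genes were chosen by this contrast, in which 5.52% of the genes tested passed an FDR of 0.05, so that these values are a description and carry no test.

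The place of both genes among those induced by HB7 depended on the level required as well as on fold. Of the 668 genes induced by HB7 at an FDR under 0.05, leaving out HB7, LEP was in place 29 and CYP78A6 in place 53 by fold change. Most genes ahead of them were near 0 in EV and low under HB7. Among the 505 induced genes with a mean log2 CPM of at least 3, LEP and CYP78A6 came first and second, with means of 4.55 and 3.16. The next in that order were AT3G45840 at a log2 fold change of 5.38 and PMSR2 at 4.69. By fold change alone, the gene just before CYP78A6 was AT5G55350 at 6.04, and the 5 genes after it were AT2G17300 at 5.82, XTH20 at 5.57, TBL38 at 5.54, PDLP8 at 5.50 and CYP71B7 at 5.43. AT2G17300 had a mean log2 CPM of 2.88 and so fell just under the cut at 3. The cut was set here and is no stated part of the choice, so the lead of both genes depends on it.

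The other CYP78A genes stayed low under HB7. CYP78A9, the closest relative of CYP78A6, had 0, 7 and 25 counts under HB7 and 0, 3 and 0 in EV of batch 3, with overlapping ranges. CYP78A8 had 0, 7 and 3 counts under HB7 and 0, 1 and 0 in EV. CYP78A5 had 0, 7 and 0 counts under HB7. CYP78A7 had no count under HB7 or EV. ESR1, the relative of LEP that drives shoot regeneration, had 31, 51 and 34 counts under HB7, or 1.11, 1.85 and 1.60 CPM, and 0 in the EV libraries of batch 3. HB12 stood at 431 ± 30.5 CPM under HB7 and 163 ± 50.2 CPM in EV of batch 3 (SD, n = 3), a log2 fold change of 1.40.

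**Figure D2:**
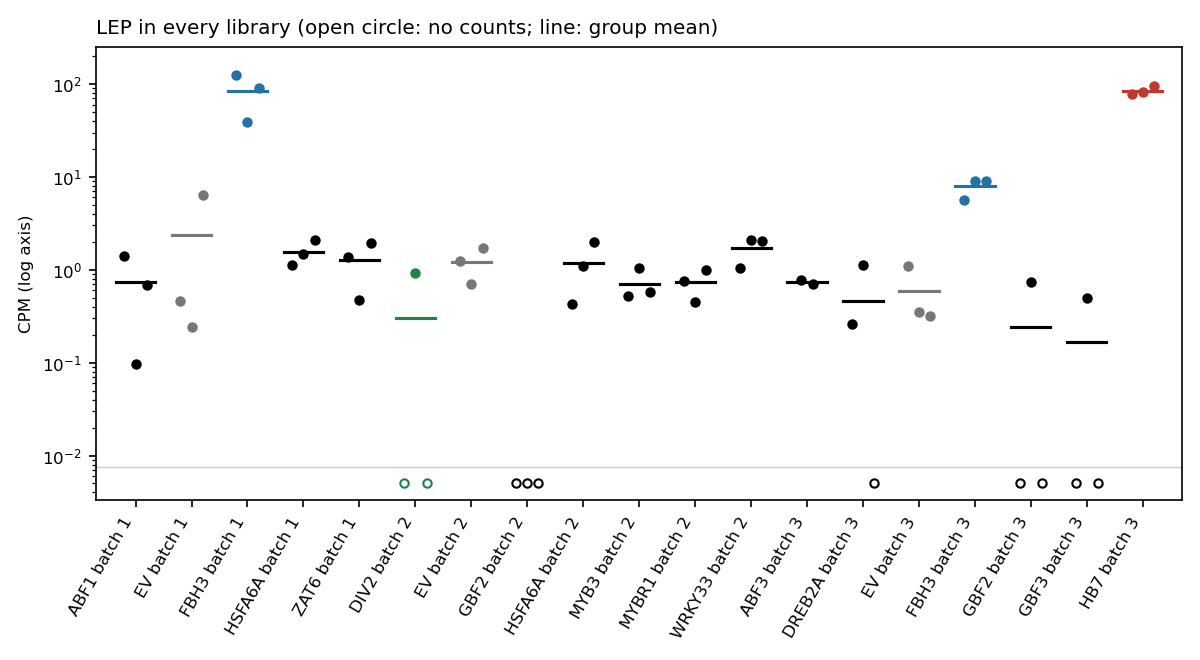
Level of LEP in each of the 56 libraries. The y axis is CPM on a log scale, each point is a library, the x axis gives the 19 groups of TF and batch, open circles are libraries with no count of LEP and bars are group means. The HB7 libraries lie at 77.0 to 95.1 CPM, FBH3 at 38.5 to 124 CPM in batch 1 and 5.61 to 9.11 CPM in batch 3, and every other library is at most 6.32 CPM.

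LEP was also raised by FBH3. The FBH3 libraries did not enter the choice of LEP, but the EV libraries of this comparison did. Its test is thus not fully independent of that choice. FBH3 gave 1830, 457 and 1335 counts of LEP in batch 1, or 124, 38.5 and 89.6 CPM, against 9, 2 and 81 counts in EV, or 0.462, 0.245 and 6.32 CPM. In batch 3 it gave 125, 262 and 226 counts, or 5.61, 9.11 and 9.03 CPM, against 1.11, 0.353 and 0.320 CPM in EV. Each of the 6 FBH3 libraries lay above every EV library of its batch. The log2 fold change was 4.63 ± 0.53 (SE), with an FDR of 3.38e-06 by edgeR's quasi-likelihood test. LEP was the only member that passed the filter on low counts in that fit, and 10.1% of all genes tested passed the FDR threshold. The EV libraries alone did not carry LEP past that filter, so its FDR is conditional on the group where it is high. LEP stood in place 72 of 1170 genes induced by FBH3, leaving out FBH3.

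The level of LEP under FBH3 was higher in batch 1 (83.9 ± 42.8 CPM, SD, n = 3) than in batch 3 (7.92 ± 2.00 CPM, n = 3), without overlap. FBH3 itself was at 3035 ± 978 CPM in batch 1 and 1864 ± 31.8 CPM in batch 3. The log2 fold change against EV was 5.13 with batch 1 alone (FDR = 0.00264 by edgeR, in which 6.9% of genes were called). With batch 3 alone it was 3.81 (FDR = 0.00882 by edgeR, 2.75% called). These fits were added after the values were seen. LEP entered them mainly through its counts in the FBH3 libraries, so both FDRs are conditional on the group where it is high. The response in batch 3 less that in batch 1 was -1.16 ± 1.1 (SE) on the log2 scale (FDR = 0.967 by edgeR), so that a difference in response was not detectable with 3 libraries a group. In this interaction 0 of 3 members tested and 0% of all 19338 genes tested passed with edgeR. CYP78A8 was the 1 member of the 3 with an unadjusted p under 0.05 (4.48 ± 1.82, FDR = 0.784 by edgeR), as had 1150 of all genes, and DESeq2 called 47 genes. LEP reached the level of the HB7 libraries under FBH3 in batch 1 only, where the ranges overlapped (38.5 to 124 CPM against 77.0 to 95.1 CPM). The summed root markers ran from 46.9 to 117 CPM in FBH3, 30.0 to 65.2 CPM in EV and 26.6 to 38.5 CPM in HB7, and their part in these values was not tested.

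CYP78A9 was also higher under FBH3 than in EV, at levels far below those of LEP. It had 100, 38 and 98 counts under FBH3 in batch 1, or 6.75, 3.20 and 6.58 CPM, against 1, 7 and 5 counts in EV. In batch 3 it had 23, 9 and 103 counts, or 1.03, 0.313 and 4.12 CPM, against 0, 3 and 0 counts in EV. All 6 FBH3 libraries were above all EV libraries of their batch. Summed over the libraries, the FBH3 to EV ratio was 17.7 in batch 1 (95% exact interval 10.1 to 33.7) and 43.8 in batch 3 (14.7 to 215), intervals that cover counting error only. CYP78A9 did not pass the filter on low counts with all EV libraries. In the same fit without the filter the log2 fold change was 4.41 ± 0.79 (SE), with an FDR of 5.39e-05 by edgeR, where 7.65% of genes were called. DESeq2 gave 4.49 (FDR = 2.5e-07) and called 3 members, LEP, CYP78A9 and CYP78A8, against 11.8% of all genes.

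CYP78A6, in contrast, had 5, 0 and 6 counts under FBH3 in batch 1 and none in batch 3. LEP was thus high under both HB7 and FBH3, CYP78A6 under HB7 and CYP78A9 under FBH3. The HB7 values entered the choice of the genes, and no test of the difference between both TFs was made.

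**Figure D3:**
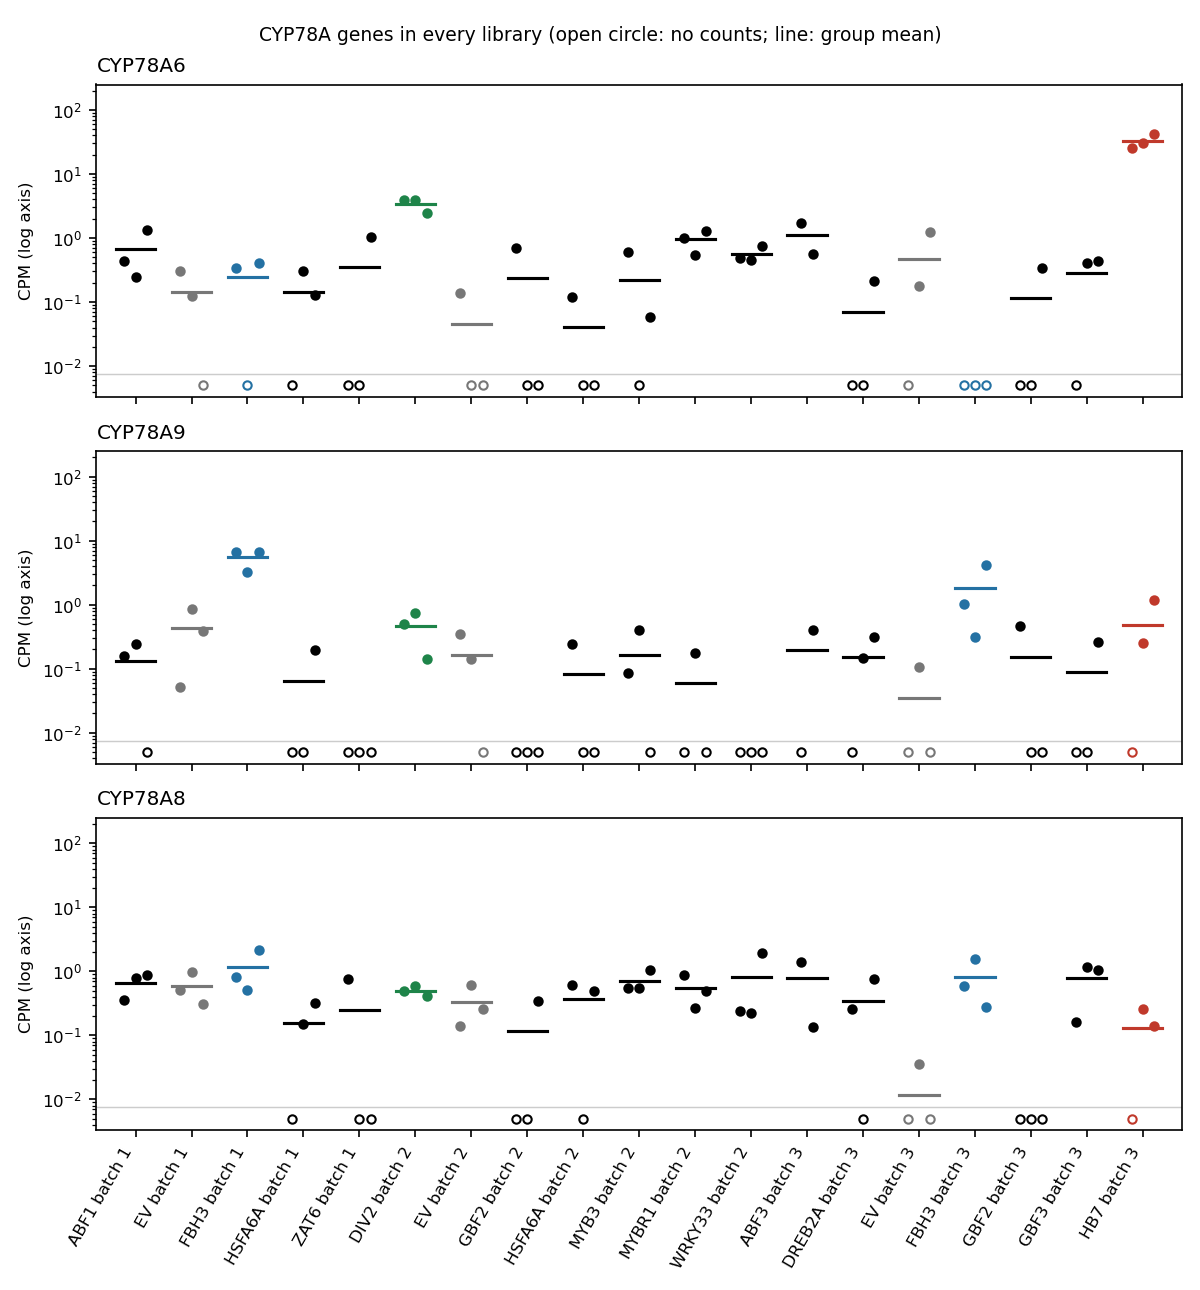
Levels of CYP78A6, CYP78A9 and CYP78A8 in each of the 56 libraries. The y axes are CPM on a log scale, each point is a library, open circles are libraries with no count and bars are group means. CYP78A6 is highest under HB7 (25.6 to 41.6 CPM) and next under DIV2 (2.44 to 3.99 CPM), CYP78A9 is highest under FBH3 in batch 1 (3.20 to 6.75 CPM), and CYP78A8 is at most 2.15 CPM in any library.

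CYP78A6 was higher under DIV2 than in EV of the same batch. It had 47, 48 and 35 counts under DIV2, or 3.88, 3.99 and 2.44 CPM, against 2, 0 and 0 counts in EV of batch 2. Summed over the libraries, the ratio was 86.4 (95% exact interval 23.4 to 721, counting error only). The log2 fold change was 6.11 ± 1.69 (SE), with an FDR of 0.0181 by edgeR, and DIV2 was the TF with the second highest level of CYP78A6, below every HB7 library. The call was lost without DIV2 replicate 2 (FDR = 0.0501 by edgeR), EV replicate 2 of batch 2 (0.0871) or EV replicate 3 of batch 2 (0.0802), with log2 fold changes of 5.96, 5.48 and 5.61. Over the 6 alternatives that left out no DIV2 library and no EV library of batch 2 the FDR stayed between 0.000402 and 0.0168. Of the 2 members tested under DIV2, 1 was called, against 18.1% of all genes tested. With 2, 0 and 0 counts in EV of batch 2, CYP78A6 passed the filter on low counts only through the DIV2 libraries. Its FDR is thus conditional on the group where it is high. This count of members called is no support for a response of the family. LEP had 0, 11 and 0 counts under DIV2 and did not pass (log2 fold change -2.01 ± 1.46, FDR = 0.436 by edgeR). The homeobox neighbours HB7 and HB12 rose by 1.13 ± 0.30 and 1.94 ± 0.24 under DIV2 on the log2 scale (FDR = 0.0134 and 2.85e-05 by edgeR).

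CYP78A6 was also above EV of batch 2 in every library of MYBR1 (8, 6 and 13 counts) and of WRKY33 (6, 6 and 11 counts). Against the 2 counts of EV, the summed ratios were 23.7 (95% exact interval 5.96 to 206) and 14.5 (3.59 to 127), counting error only. It did not pass the filter on low counts under either TF. Without the filter the FDR was 0.223 for MYBR1 and 0.472 for WRKY33 by edgeR. Under ABF3, where it was tested, it had 44 and 17 counts and a log2 fold change of 1.16 ± 1.69 (FDR = 0.842 by edgeR). Apart from HB7 and DIV2, no library exceeded 1.69 CPM of CYP78A6, and it had no count in 21 of the 56 libraries.

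LEP was measured under all 12 other TFs, and FBH3 was the only one for which it passed the FDR threshold in the edgeR fit. In EV it had 2 to 81 counts, with a median of 0.701 CPM over 9 libraries, and in the 38 libraries of the 11 TFs other than HB7 and FBH3 it ran from 0 to 2.1 CPM with a median of 0.695 CPM. From FBH3 in batch 3 downwards in the order of group means, each group overlapped the next. The log2 fold changes of LEP ran from -3.11 under GBF2 to 0.51 under WRKY33. Those under ABF1, HSFA6A and ZAT6 were -1.67, -0.30 and -0.88 and turned to 0.99, 0.80 and 1.79 without EV replicate 3 of batch 1, the library with 81 counts.

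In batch 2, EV had 1.24, 0.701 and 1.71 CPM of LEP, WRKY33 1.05, 2.1 and 2.04 CPM and HSFA6A 0.427, 1.1 and 1.99 CPM. MYB3 had 0.516, 1.04 and 0.576 CPM, and MYBR1 had 0.764, 0.446 and 0.998 CPM. These groups overlapped EV. In batch 1, ABF1 had 1.41, 0.0977 and 0.692 CPM, HSFA6A 1.12, 1.46 and 2.07 CPM and ZAT6 1.38, 0.472 and 1.93 CPM, all within the wide range of EV in that batch apart from 1 ABF1 library below it. In batch 3, ABF3 had 0.768 and 0.698 CPM, DREB2A 0.258, 1.13 and 0 CPM and GBF3 0, 0.496 and 0 CPM. They too overlapped EV, and GBF3 was at 0 in 2 of 3 libraries.

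GBF2, a bZIP TF, had the lowest mean of LEP over all its libraries. In batch 3 alone the mean under GBF3 was lower (0.165 against 0.243 CPM), with overlapping ranges. In batch 2 GBF2 had 0 counts in all 3 libraries against 18, 15 and 26 in EV. This puts LEP at least 16.9-fold lower with the floor of 3 counts over the group. In batch 3 it had 0, 24 and 0 counts against 16, 10 and 10 in EV, with overlap. The log2 fold change over both batches was -3.11 ± 1.45 (SE) and did not pass with edgeR (FDR = 0.202). DESeq2 gave -3.56 and an FDR of 0.0348, where 13.7% of genes were called, and edgeR gave -7.03 and an FDR of 0.00988 without GBF2 replicate 2 of batch 3. The response in batch 3 less that in batch 2 was 6.45 ± 3.18 (FDR = 0.322 by edgeR), where 0 of 1 member tested and 4.88% of all genes passed. Under HSFA6A that difference was 0.59 ± 1.15 (FDR = 0.867 by edgeR), with 0 of 1 member and 5.76% of all genes called.

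**Figure D4:**
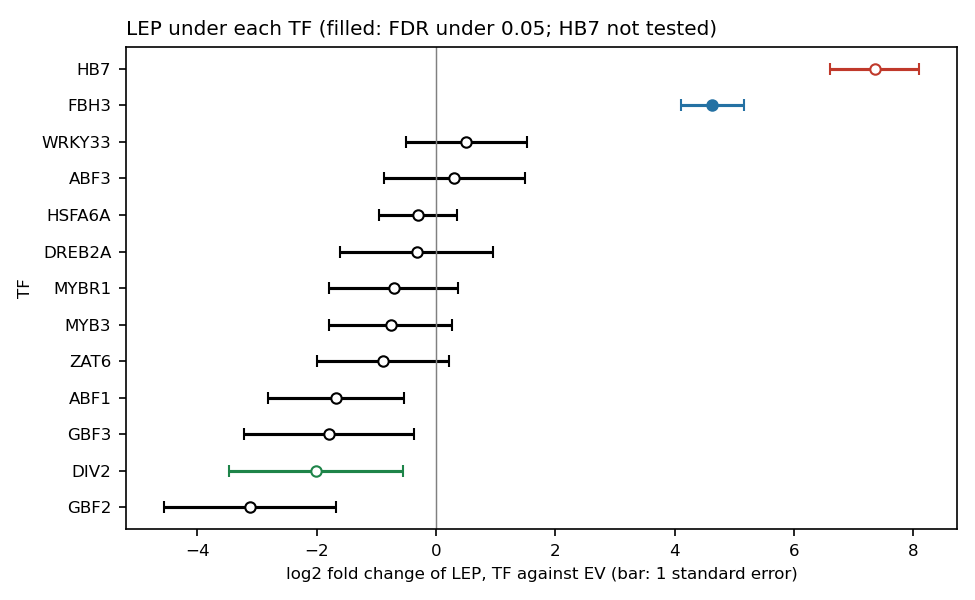
Log2 fold change of LEP under each of the 13 TFs against EV. Points are edgeR estimates with bars of 1 standard error, filled where the FDR is under 0.05, and HB7, which chose the gene, is drawn without a test. FBH3 stands at 4.63 and HB7 at 7.35, and the other 11 TFs lie between -3.11 and 0.51.

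Among the remaining TFs no member was called. For GBF2, 0 of 1 member tested passed, against 10.9% of all genes. For MYB3 it was 0 of 2 against 10.6%, for MYBR1 0 of 1 against 11.9% and for WRKY33 0 of 1 against 6.22%. For ZAT6 it was 0 of 1 against 3.19%, for DREB2A 0 of 1 against 2.72% and for ABF3 0 of 3 against 1.81%. Few genes of any kind responded to ABF1 (0 of 2 members, 0.495% of genes), GBF3 (0 of 2, 0.0157%) and HSFA6A (0 of 1, 0.0111%). LEP had an unadjusted p under 0.05 for GBF2, and CYP78A8 for ABF3 and GBF3.

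CYP78A8 was present at low levels in most groups, with 0 to 45 counts in a library and a median of 0.336 CPM over all 56. In EV it had 10, 8 and 4 counts in batch 1, 2, 13 and 4 in batch 2 and 0, 1 and 0 in batch 3. The EV libraries of batch 3 were thus lowest. Every library of ABF3 (37 and 4 counts), FBH3 (13, 45 and 7) and GBF3 (4, 26 and 24) in batch 3 lay above them. The log2 fold changes were 5.29 ± 1.71 for ABF3 (FDR = 0.177) and 5.35 ± 1.51 for GBF3 (FDR = 0.262), neither of which passed by edgeR. For FBH3 it was not tested with the filter. Without the filter it was 2.72 ± 1.11 (FDR = 0.153 by edgeR), and DESeq2 called it. All 3 TFs were set against the same 3 EV libraries with 1 count in all.

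CYP78A5 and CYP78A7 were nearly absent. CYP78A5 had 10 counts in WRKY33 replicate 2, 7 in HB7 replicate 2 and none in the other 54 libraries. CYP78A7 had 1 count in each of 2 libraries, MYB3 replicate 3 and MYBR1 replicate 1. CYP78A10, the remaining gene of the family, had 17 counts over 3 libraries. At this depth these genes were not detectable in EV, apart from 2 counts of CYP78A10 in 1 EV library of batch 2, and neither CYP78A5 nor CYP78A7 passed the filter in any fit.

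The genes around the members were compared under HB7, FBH3 and DIV2. Of 21 annotated neighbours, other than HB7 and HB12, 16 were in the tables and 8 or 9 passed the filter for these TFs. Between CYP78A6 and HB7, AT2G46670 stood at 10.97 ± 3.13 CPM under HB7 and 12.9 ± 1.36 CPM in EV of batch 3 (SD, n = 3). On the other side of CYP78A6, CB5-C, a cytochrome b5 gene, stood at 1.56 ± 0.78 CPM under HB7 and 4.20 ± 1.46 CPM in EV. Of the genes past the filter, the nearest on either side of CYP78A6 had thus no higher mean under HB7 than in EV. Beside LEP, AT5G13900 stood at 5.70 ± 1.28 CPM under HB7 and 0.789 ± 0.70 CPM in EV of batch 3, and at 7.72 ± 1.69 CPM under FBH3 and 1.38 ± 0.60 CPM in EV of batch 1. In batch 3 its level under FBH3 was 0.995 ± 0.49 CPM, close to that of EV. On the other side of LEP, AT5G13920 averaged 1.42 CPM under HB7 and 0.0640 CPM in EV of batch 3, so that both neighbours of LEP had higher means under HB7, at levels far below LEP.

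Of these neighbours, 0 of 8 passed under FBH3, against 10.1% of all genes tested, and 1 of 9 under DIV2, against 18.1%. The gene that passed under DIV2 was DAG1, a Dof TF gene near CYP78A9. It rose by 1.07 ± 0.20 on the log2 scale (FDR = 0.00103 by edgeR). Under WRKY33, 1 of 8 passed, against 6.22% of all genes, and this was DAG1, which fell (-0.73 ± 0.19, FDR = 0.031 by edgeR). Under GBF2, 1 of 8 passed, against 10.9%, and this was AT5G13890 near LEP, which also fell (-0.64 ± 0.16, FDR = 0.0135 by edgeR). AT5G13900 had a log2 fold change of 1.36 ± 0.62 under FBH3 (FDR = 0.196 by edgeR). HB12, next to CYP78A9, had a log2 fold change of -0.21 ± 0.18 under FBH3 (FDR = 0.564 by edgeR). HB12 passed under GBF2, MYB3 and MYBR1 at 0.93, 1.87 and 1.31 (FDR = 0.0067, 0.000103 and 0.00135 by edgeR), where CYP78A9 had at most 13 counts in a library. The sources used here do not say if strand entered the counting, and values of overlapping or antisense genes at these loci are uncertain.

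**Figure D5:**
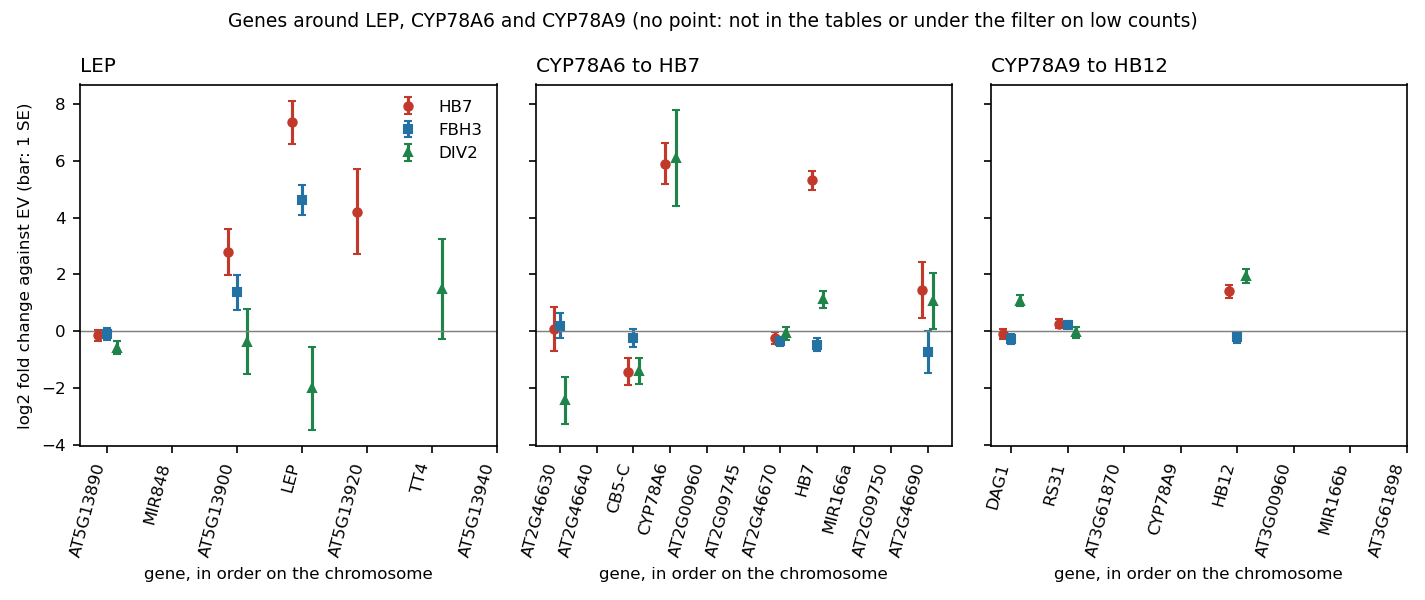
Log2 fold change against EV of the genes around LEP, CYP78A6 and CYP78A9. Genes are in chromosome order on the x axis of each panel, circles, squares and triangles are HB7, FBH3 and DIV2, bars are 1 standard error, and genes with no point were not in the tables or under the filter on low counts. CYP78A6 stands at 5.89 under HB7 and 6.11 under DIV2 with CB5-C at -1.42 and AT2G46670 at -0.24 under HB7, and CYP78A9 has no point because of the filter.

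Of 11 other genes of organ and seed size, 8 were tested, and 0 passed under the 9 TFs other than HB7, FBH3, DIV2 and GBF2. Under FBH3, 3 of the 8 rose (10.1% of all genes were called in either direction) and 0 fell, with a median log2 fold change of 0.13 over the 8 against -0.03 over all genes. They were ARGOS, which promotes organ growth in response to auxin, at 1.79 ± 0.18, AP2, a floral TF that limits seed size, at 1.12 ± 0.26, and DAR1, a relative of the growth repressor DA1, at 0.66 ± 0.16 (FDR = 4.19e-07, 0.0069 and 0.00987 by edgeR). Under DIV2, 1 rose and 2 fell (18.1% of all genes called), with a median of 0.37 against -0.01. DAR1 rose by 2.56 ± 0.20, while ARGOS fell by 2.45 and DA1 fell by 0.64 on the log2 scale (FDR = 2.93e-07, 2.82e-05 and 0.00109 by edgeR). Under GBF2, 0 rose and 2 fell (10.9% of all genes called), ARGOS at -1.62 and DA1 at -0.34 (FDR = 0.00043 and 0.0319 by edgeR). Under HB7, given without a test, the median log2 fold change of the 8 was -0.19 against 0.05 over all genes, with DAR1 at 0.81 and DA1 at -0.48. Of the 5 relatives of LEP in its ERF group, none passed the filter under a TF other than HB7.

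The genes most like LEP across the 56 libraries, by Pearson's r of log2(CPM + 0.5) less the EV mean of the batch, were HAT2 (r = 0.91), AT3G45840 (0.91), HAT1 (0.88), PMSR2 (0.83) and AT3G18773 (0.82), among 22118 genes. HAT1 and HAT2 encode HD-Zip II TFs that respond to shade and auxin. HAT2 averaged 184 CPM under HB7 and 20.8 CPM in EV of batch 3, and 294 CPM under FBH3 and 22.1 CPM in EV of batch 1. HAT1 averaged 98.8 and 7.08 CPM, and 585 and 16.9 CPM. All 5 genes had higher means under HB7 and under FBH3 in batch 1 than in EV of the same batch. They were picked for likeness to LEP over these same libraries, so such means were built into the choice.

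The genes most like CYP78A6 were AT5G57770 (r = 0.84), AT4G18260 (0.83), AT5G20820 (0.78), AT4G20820 (0.77) and AT3G48970 (0.75). AT5G57770 averaged 9.21 CPM under HB7 and was at 0 in EV of batches 1 and 3 and under FBH3. For CYP78A9, a gene for which the same measure was added after the values were seen, they were AT4G16810 (r = 0.86), AT1G02040 (0.84), AT1G33790 (0.83), PCR1 (0.83) and BEE1 (0.83). BEE1, a bHLH gene induced by brassinosteroid, averaged 219 and 39.5 CPM under FBH3 in batches 1 and 3 and 0.366 CPM under HB7. Between members, r was 0.62 for LEP and CYP78A9, 0.40 for LEP and CYP78A6 and 0.04 for CYP78A6 and CYP78A9. The libraries share batches and EV means, and the alike genes were picked over these same libraries. Their levels and r are thus given as a description only.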

How the data were processed

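The authors aligned reads to TAIR10 with HISAT2 (2.0.5), assigned them to genes (GenomicFeatures, GenomicAlignments) and deposited the counts unnormalized. They compared each TF with EV by DESeq2 (1.22.1) and a TF+Batch model, and removed genes that responded strongly to cycloheximide, a step not repeated here. Here, from the deposited counts, each TF was compared with all 9 EV libraries in edgeR (4.0.16, R 4.3.3), with its quasi-likelihood test, TMM, an additive batch term, filterByExpr at a minimum count of 10 and Benjamini-Hochberg FDR over all genes tested, with 0.05 as the threshold. Differences between batches were tested by an interaction term. Each SE of an edgeR fit was derived as the absolute log2 fold change over the square root of the quasi-likelihood F statistic. It is approximate, above all for genes near 0 in EV. LEP and CYP78A6 were chosen on HB7 against EV, so this contrast is described without tests. The members and gene lists were chosen with earlier results of these data known. Named genes are the members, the fixed lists (rest of the CYP78A family, LEP's ERF group, HB7 and HB12, neighbours, organ size), the 5 genes after CYP78A6 by fold change and the 5 most alike genes. Values are given for list genes past the threshold in a TF other than HB7, and for some list genes that did not pass.

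Depth ran from 8619133 to 29763752 counts, and exact binomial intervals at 95% and floors of 3 counts cover counting error only. Of 55 replicate pairs, 0 were identical, and the lowest ratio of chi-square to degrees of freedom was 4.11, beyond sampling noise. Of 33016 gene IDs, 32795 matched the RefSeq table of TAIR10.1, which was used for names, sequences and transcript lengths. On data simulated from these libraries, 200 genes were changed, drawn at random from all genes past the filter. The method recovered 59.5% of 4-fold changes for HB7 (3 and 9 libraries, 18962 genes) and 81% for FBH3 (6 and 9, 17823 genes). For DIV2 it recovered 83.5% of 16-fold changes (3 and 9, 18381 genes). False calls numbered 8 for HB7, 8 for FBH3 and 13 for DIV2. These rates need not hold for members with few counts. Alternatives were DESeq2 (1.42.0), its size factors in edgeR, no filter, EV of the same batch, a single model over all libraries and a replicate block. Each library of the TF and of EV in its batches was also left out in turn, but no EV library of another batch. Further alternatives were other TF libraries of batch 3 as control for HB7, other scalings of the levels and a window of 500 bases. Fits of single batches were added after the values were seen.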

Additional observations from a re-analysis of the deposited data

Results flagged for a closer look

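There were 6 values far from the others in groups of 6 or 9 libraries of 1 vector, out of 16 such groups with any counts. The values are low counts, often 0 and pooled over batches, so a number expected by chance cannot be given. LEP stood at 6.32 CPM (81 counts) in EV replicate 3 of batch 1, with the next of the 9 EV libraries at 1.71 CPM. CYP78A6 stood at 1.25 CPM (39 counts) in EV replicate 3 of batch 3, with the next at 0.308 CPM, and CYP78A9 at 0.857 CPM (7 counts) in EV replicate 2 of batch 1, with the next at 0.390 CPM. Under GBF2 1 library each carried all counts of a gene, LEP at 0.729 CPM (24 counts, batch 3 replicate 2), CYP78A9 at 0.458 CPM (13 counts, batch 3 replicate 1) and CYP78A8 at 0.349 CPM (5 counts, batch 2 replicate 3).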

How the results depend on the processing

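The call of LEP under FBH3 was kept under every alternative run, with log2 fold changes from 3.81 (batch 3 alone) to 5.45 (without EV replicate 3 of batch 1). The call of CYP78A6 under DIV2 was lost in 3 of 6 fits that left out a library, so that the count of members called for DIV2 ran from 0 to 1. For FBH3 the members called were 1 as reported, 2 without the filter and with batch 1 alone, 3 with DESeq2 and with the single model over all libraries, and 1 to 2 with a library left out, since CYP78A9 and CYP78A8 enter only in those fits. For GBF2 it was 0, but 1 with DESeq2 and 0 to 1 with a library left out. Counts for the other 9 tested TFs and the 3 interactions stayed at 0.

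Over all batches, the replicate numbers showed no clear pairing of the libraries. In batch 2, replicates 1 and 3 correlated positively with EV under every TF, from 0.08 (MYB3 replicate 1) to 0.31 (MYBR1 replicate 1). Replicate 2 of that batch ran from -0.06 (HSFA6A) to 0.03 (MYBR1), so pairing within a batch was not settled. Over 47 pairs the correlation of same-numbered deviations from -0.09 to 0.31 had a median of 0.06, and 0 of 15 groups with 3 pairs had every pair over 0.1. With the replicate number as a block, LEP under FBH3 was 4.88 and CYP78A6 under DIV2 6.37, with 1 member called for each, 0 for the other TFs, and LEP turned to 0.11 under HSFA6A and 0.16 under ZAT6. The block changed the total of genes called from 1866 to 1266 for FBH3, from 3416 to 4361 for DIV2, from 2014 to 1059 for GBF2 and from 1077 to 166 for HB7. DESeq2 called 1759 for HB7. For HB7, LEP under the block was 7.35 and CYP78A6 6.55.

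Leaving out a library turned the sign of uncalled values. LEP ran from -2.57 to 0.99 under ABF1, -2.10 to 0.42 under DREB2A, -0.60 to 0.80 under HSFA6A and -1.40 to 1.79 under ZAT6, and CYP78A8 from -0.17 to 0.65 under ABF1. With the other TF libraries of batch 3 as control, HB7 gave 5.41 for LEP and 6.97 for CYP78A6, and the single model gave 6.95 for CYP78A6. With a library left out these ran from 6.996 to 7.91 for LEP and 5.43 to 8.05 for CYP78A6. FBH3 is among those controls. Scaled to library totals, the means under HB7 were 115 CPM for LEP and 44.3 CPM for CYP78A6. Scaled to totals without the 4 loci with the most counts, they were 119 and 45.5 CPM, LEP under FBH3 in batch 3 was 10.03 CPM and CYP78A6 under DIV2 4.53 CPM. With 500 bases in place of the shorter window, 4 members in place of 1 held the HD-Zip word. Depth limits CYP78A5, CYP78A7, CYP78A8 and CYP78A9, whose counts lay near the floor of 3 in most libraries. The cause of these changes was not tested.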
